A study of Mus musculus with 87 samples.

Results

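The genes described here are those whose RNA rose within 12 h of *Obox4* induction in mouse embryonic stem cells (mESCs) and then held a plateau to 48 h. They were chosen by their CPM (read counts divided by the total of their library and scaled to a common depth). A gene entered the set if its mean at 12 h was at least 1 CPM and at least 2 times its mean at 0 h, if its mean at 48 h lay between 0.67 and 1.5 times the mean at 12 h, and if the lowest 12 h library stood above the highest 0 h library. Of 55487 annotated genes, 14343 reached 1 CPM at 12 h, 313 of these were also at least 2 times higher than at 0 h, and 208 met every condition, called members below. The *Obox4* copies, *Arl4d* and *Dppa3* were left out by name, which removed 3 genes. All 9 induction libraries were used to choose the members, so their values there are a description with no test, and every test below comes from other libraries.

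The induction series used 3 libraries each at 0, 12 and 48 h from an EB3 mESC line (129/Ola) that carries a TRE-3xFLAG-*Obox4* transgene switched on by doxycycline through a CAG-driven transactivator. Cells at 0 h had no doxycycline, cells at 12 and 48 h did, and doxycycline without the transgene was not analysed here, so the drug and *Obox4* cannot be told apart. In 2C-embryos (B6D2F1, from mice 8 weeks old, 30 embryos pooled per library, 2 libraries per group), antisense oligonucleotides (ASOs) were injected into zygotes against *Obox4* (*Obox4* KD), *Dux* (*Dux* KD) or both (DKD), both ASOs were injected with codon-optimised *Obox4* mRNA (rescue), or a scramble ASO was injected. The *Obox4* or *Dux* ASO alone was injected at a lower total ASO concentration than both ASOs, the rescue mix or the scramble ASO. In *Obox4* KD and *Dux* KD against scramble, ASO concentration and target therefore cannot be told apart. Morulae (2 libraries per group) had received both ASOs or the scramble ASO. Single blastomeres of 2C-embryos (2 per genotype) all carried the *Dux* KO and were *Obox4* KO, *Obox4* Het or *Obox4* WT. mESCs grown in pladienolide B (PlaB), an inhibitor of the splicing factor SF3B1 that moves mESCs towards a totipotent-like state, were *Obox4* KO, *Dux* KO, double KO (DKO) or WT, with 3 libraries each. The knockout lines were derived from single cells and the DKO line from *Obox4* KO cells, so differences between lines also include clonal differences, and nothing in the labels says that the libraries of a group came from separate cultures. Peak lists from CUT&RUN, which maps where a protein or histone mark sits on DNA, came from induced 3xFLAG-OBOX4 mESCs (3 replicates), induced 3xFLAG-DUX mESCs (1 list) and *Obox4* KO and WT mESCs, each with or without PlaB (3 lists for each of H3K4me3, H3K27ac and H3K27me3).

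*Obox4* encodes a homeodomain protein of the oocyte-specific homeobox family, and *Dux* encodes a double-homeodomain protein. Both are expressed around the time the mouse embryo first transcribes its own genome, at the 2C stage, when a characteristic group of genes and MERVL retroviral elements is switched on. A homeodomain binds short DNA motifs, and such a factor may act at a promoter or at a distant element. H3K4me3 marks promoters that are open for initiation, H3K27ac marks active promoters and enhancers, and H3K27me3 is laid down by Polycomb at silent developmental genes, often beside H3K4me3.

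Library checks set the limits of what follows. Total gene counts ran from 14283083 to 104864947 per library. Summed over its annotated copies, *Obox4* stood at 0.379 to 0.583 CPM at 0 h, 5.12 to 6.95 CPM at 12 h and 7.43 to 8.41 CPM at 48 h. In 2C-embryos the same sum was 64.3 and 81.6 CPM in *Obox4* KD, 55.3 and 48.9 CPM in *Dux* KD and 48.6 and 44.8 CPM in DKD, against 62.1 and 70.8 CPM in scramble, so *Obox4* KD was not below scramble by this measure. Without the copy *Obox4-ps35*, which was set aside after its values were seen, it was 3.73 and 2.97 CPM in *Obox4* KD, 5.28 and 3.08 CPM in *Dux* KD and 2.29 and 2.78 CPM in DKD, against 11.1 and 16.4 CPM in scramble. *Duxf3*, the row of *Dux*, had 3.86 and 1.98 CPM in *Dux* KD, against 5.89 and 7.15 CPM in scramble. It had 8.19 and 5.69 CPM in rescue, against 4.26 and 3.14 CPM in DKD. In PlaB mESCs, *Obox4* over all copies had 5.29, 4.10 and 11.5 CPM in *Obox4* KO, 0.138, 0.123 and 0.131 CPM in *Dux* KO and 0.187, 0 and 0.14 CPM in DKO, against 16.9, 15.5 and 15.2 CPM in WT. *Obox4* KO replicate 3 stood apart from its group, and *Obox4* RNA was lower in *Dux* KO than in *Obox4* KO itself, so the *Dux* KO comparisons also compare cells with and without *Obox4* RNA. *Duxf3* had 0 counts in *Dux* KO and DKO, and 2.74 to 5.25 CPM in *Obox4* KO, against 4.58 to 5.73 CPM in WT. Over all copies the morulae went against their label, with *Obox4* at 3.76 and 9.65 CPM in the libraries labelled double KD and 0.286 and 0.321 CPM in scramble. Without *Obox4-ps35* it was 0.143 and 4.09 CPM in the libraries labelled double KD, against 0.124 and 0.195 CPM in scramble. By this measure replicate 1 labelled double KD lay within the scramble range, and only replicate 2 stood above it. In the blastomeres the rows still counted did not separate the genotypes, with 18 and 26 CPM in *Obox4* KO and 21.5 and 32.5 CPM in *Obox4* WT. Without *Obox4-ps35* it was 8.24 and 0 CPM in *Obox4* KO, against 2.38 and 1.04 CPM in *Obox4* WT. By the study's account, the *Obox4* KO removed a cluster of copies and kept others, among them a copy with an intact reading frame. In *Obox4* KO blastomeres and mESCs, the sum over all copies can therefore include RNA of kept copies. Directions in morulae and blastomeres therefore refer to the labels only. In the bulk samples, which are all but the single blastomeres, fewer cells of a type and less RNA per cell cannot be told apart.

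Most members rose by little more than the rule demands. The ratio of mean 12 h to mean 0 h CPM ran from 2.00 to 15.48 with a median of 2.35, and it lay under 3 for 158 members, between 3 and 5 for 44 and at 5 or more for 6. The median member stood at 1.13 CPM at 0 h, 2.65 CPM at 12 h and 3.41 CPM at 48 h. At 12 h, 82 members were under 2 CPM and 39 were at 10 CPM or more. Within the permitted plateau, the 48 h mean exceeded the 12 h mean in 159 members and did not in 49, and the 3 libraries at 48 h lay wholly above those at 12 h in 52 members and wholly below in 4. The rule used these same libraries, and the counts over all genes were not taken. They therefore describe the members and cannot be set against other genes.

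The largest ratio belonged to *Il34*, which encodes a cytokine that binds the CSF1 receptor. *Il34* had 2.88, 2.79 and 3.67 CPM at 0 h, 51.5, 45.2 and 47.7 CPM at 12 h, and 52.7, 58.5 and 60 CPM at 48 h, a ratio of 15.48. Its 3 libraries at 12 h sat close together and far above those at 0 h. *Gm15894*, an antisense transcript inside *Il34*, had 1.09, 1.03 and 1.75 CPM at 0 h, 5.28, 4.87 and 6.03 CPM at 12 h and 5.55, 7.34 and 6.93 CPM at 48 h. The study does not state that its counting used strand, so reads of *Il34* and *Gm15894* cannot be told apart.

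The second largest ratio was that of *Npffr1*, the neuropeptide FF receptor, which had 0.156, 0.138 and 0.195 CPM at 0 h, 1.10, 1.73 and 1.71 CPM at 12 h and 1.49, 2.36 and 1.26 CPM at 48 h (ratio 9.30). *Rapgef4*, a cAMP-dependent exchange factor for RAP1 (ratio 6.59), *Il9r*, the interleukin 9 receptor (5.46), and *Rasgrp3*, an exchange factor for RAS and RAP (4.14), were likewise below 0.5 CPM in every 0 h library. *Id3*, an inhibitor of bHLH transcription factors, had 2.80, 4.24 and 3.38 CPM at 0 h, 15.8, 16.5 and 14.7 CPM at 12 h and 17.8, 15.0 and 16.7 CPM at 48 h (ratio 4.52), with a clear gap between 0 h and the later libraries. *Fgfbp1*, which releases fibroblast growth factors from the matrix (ratio 4.97), *Abcb5*, an ABC transporter (4.75), *Tmem63c*, a membrane protein related to osmosensitive channels (4.66), and *Asgr2*, a subunit of the asialoglycoprotein receptor (4.64), completed the named genes among the 10 largest ratios, beside *4930512J16Rik* (6.50) and *Gm2035* (5.84).

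Predicted genes and pseudogenes made up the rest of the 20 largest ratios, apart from *Tbx3os1*, an antisense transcript at *Tbx3* (ratio 3.90). They were *Gm11962* (4.23), *Gm8038* (4.17), *Gm4756* (4.08), *Gm5662* (4.02), *Gm4782* (3.95) and *Gm5788* (3.92). *Gm2035* had 0.894, 0.517 and 0.487 CPM at 0 h, 2.72, 4.31 and 4.07 CPM at 12 h and 6.79, 4.63 and 4.51 CPM at 48 h. *Gm5662*, whose RefSeq product is named Eif1a-like, had 5.56, 3.58 and 3.70 CPM at 0 h, 12.5, 19.6 and 19.5 CPM at 12 h and 32.4, 20.9 and 24.0 CPM at 48 h, and still stood close to the upper plateau bound. *Gm2035*, *Gm5662* and *Gm5788* lie in 1 stretch of chromosome 12 that holds near-identical copies. Counts discarded reads that map to several places, so the split between such copies is uncertain.

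By read count, the set was led by genes already abundant at 0 h, although counts were not divided by gene length and give no order of RNA levels. *Trim28*, the co-repressor that KRAB zinc finger proteins recruit to retroelements, had 1614, 1464 and 1465 CPM at 0 h, 3001, 3419 and 3731 CPM at 12 h and 3595, 3277 and 3189 CPM at 48 h. *Fem1b*, a substrate receptor of CUL2 ubiquitin ligases, averaged 560 ± 25 CPM at 0 h, 1219 ± 65.4 CPM at 12 h and 1274 ± 76.5 CPM at 48 h (SD, n = 3 each). *Fbxo15*, an F-box gene expressed in embryonic stem cells, averaged 339 ± 36.6 CPM at 0 h, 1193 ± 272 CPM at 12 h and 873 ± 128 CPM at 48 h. *Klf9*, a Krüppel-like transcription factor, averaged 240 ± 11 CPM at 0 h, 514 ± 68.0 CPM at 12 h and 548 ± 25.7 CPM at 48 h. *Mkrn1*, a makorin ubiquitin ligase, averaged 208 ± 9.98 CPM at 0 h, 464 ± 29.7 CPM at 12 h and 571 ± 14.2 CPM at 48 h. The rule demands that the 12 h libraries lie above those at 0 h, and in each of these genes the 48 h libraries lay above them as well.

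**Figure D1:**
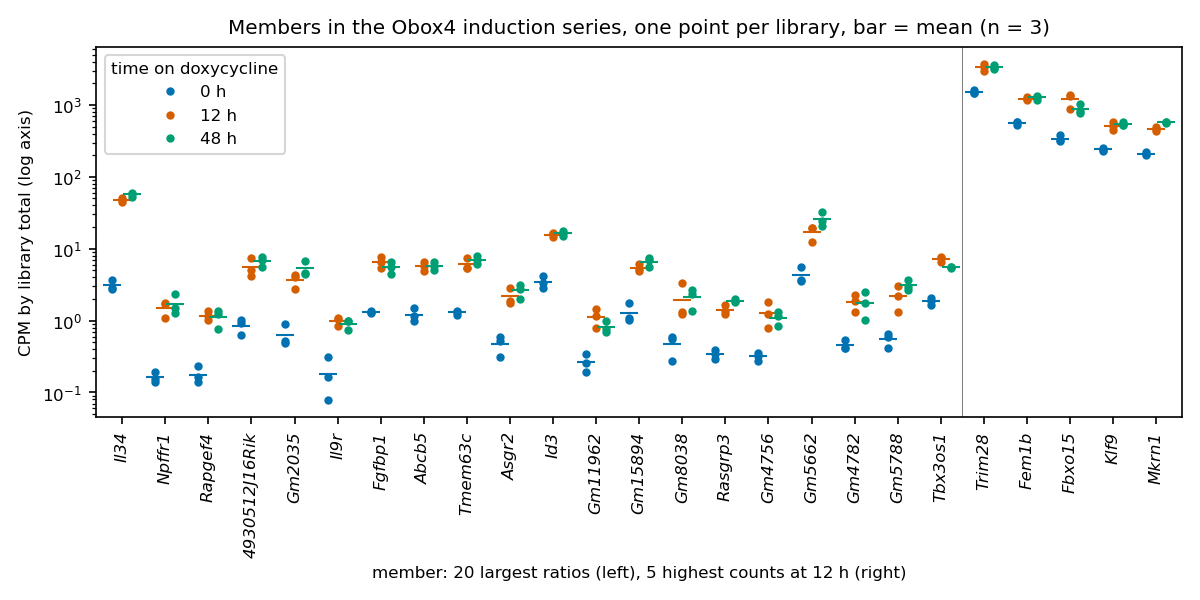
CPM by library total (log axis) of the 20 members with the largest ratio of 12 h to 0 h and, right of the line, the 5 with the highest counts at 12 h, with 1 point per library and a bar at the mean of 3 libraries at 0, 12 and 48 h of doxycycline. *Il34* stands out with 2.79 to 3.67 CPM at 0 h and 45.2 to 51.5 CPM at 12 h.

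The thresholds cut through a continuum. For the level at 12 h, *Il9r* (1.00 CPM) and *Fbp1* (1.01 CPM) lay just inside, and *Fbln7* (0.9997 CPM) and *Olfr374* (0.996 CPM) just outside. For the ratio of 12 h to 0 h, *Ddr2* (2.002) and *Amigo2* (2.003) lay just inside, and *Klk10* (1.998) and *Rhbdl3* (1.997) just outside. For the plateau, *Gm5662* (48 h over 12 h 1.498) lay just under the upper bound and *Gm49432* (1.506) and *Cpne2* (1.51) just over it, while *Fyb2* (0.674) and *Gm8540* (0.691) lay just over the lower bound and *Dok6* (0.638) under it. For the gap between libraries, *Spag16* (0.0531 CPM) and *Adm* (0.0645 CPM) had the smallest gaps, and *Samd14* (-0.0132 CPM) and *Gpha2* (-0.0287 CPM) just overlapped. In all, 89 genes rose enough but were past the upper plateau bound at 48 h.

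None of the 35 genes of a list of 2C genes was a member. Only 208 of the 14343 genes at 1 CPM or more at 12 h were members, so their absence from lists this short says little. The list of 2C genes leaves out the chromosome 12 members *Gm2035*, *Gm5662* and *Gm5788*. Of these, *Gm5662* had 164 and 173 CPM in scramble 2C-embryos. The list's summed level was 1064 to 1119 CPM at 0 h, 1060 to 1256 CPM at 12 h and 1280 to 1494 CPM at 48 h, so its libraries at 12 h overlapped those at 0 h. None of 16 pluripotency genes, 14 primitive endoderm genes, 15 p53 targets, 10 genes of the integrated stress response, 7 fibroblast genes or 8 cumulus and granulosa genes was a member. The summed level of the pluripotency genes, the defining markers of mESCs, was 7635 to 8006 CPM at 0 h, 7992 to 8340 CPM at 12 h and 8321 to 8422 CPM at 48 h. The summed level of the fibroblast genes was low but did not overlap between times, with 14.5 to 18.4 CPM at 0 h, 23.8 to 27.7 CPM at 12 h and 29.8 to 33.9 CPM at 48 h, and its part in the members' values was not tested. Of 12 trophectoderm genes, *Krt18*, a keratin of simple epithelia, was a member, with 11.2, 10.8 and 10.1 CPM at 0 h, 19.2, 23.7 and 25.9 CPM at 12 h and 32.0, 30.0 and 24.5 CPM at 48 h. The germ line and meiosis list gave 3 members among 15 genes. These were *Sycp2* and *Sycp3*, components of the synaptonemal complex, with ratios of 2.96 and 2.02, and *Tex101*, a glycoprotein of germ cells, with a ratio of 3.02. The summed level of that list, members included, was 133 to 139 CPM at 0 h, 208 to 226 CPM at 12 h and 234 to 251 CPM at 48 h, without overlap. Its 3 members were chosen for such a rise in these libraries, so part of this rise is built in. The sum without them was not taken.

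The members were spread over the genome with a few neighbours. Within 100000 bases of each other lay 10 pairs, which involved 17 members. *Gm4782* and *Gm8038* lie 9159 bases apart on chromosome 6, the heat shock genes *Hspa1b* and *Hspa1a* 9952 bases apart on chromosome 17, and the collagen genes *Col4a6* and *Col4a5*, which are transcribed away from each other, 1309 bases apart on chromosome X. *Tbx3os1* overlaps *Gm16063* on the opposite strand. By type, 186 members were protein-coding and 22 were not, which put 89.42% of members in the protein-coding class against 77.59% of all genes tested.

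OBOX4 binding was not used to choose the members. MACS3 peaks numbered 27713, 20417 and 22263 in the 3 replicates, and 20995 merged regions were held by at least 2. A promoter was taken as 3000 bases either side of any annotated start, and it counted as bound where such a merged region reached into it. By this measure OBOX4 was present at 90 of 208 member promoters (43.27%) and at 41.28% of those of the 18564 genes tested, so the members' share was close to the background. The nearest OBOX4 summit lay at a median distance of 6913 bases from the start for members and 7910 bases for all genes tested. A DUX peak was present at 4 members (1.92%, against 1.74% of genes tested), namely *Gm5662*, *Abcb5*, *Cntn2* and *1110032F04Rik*, of which 2 also had an OBOX4 peak.

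The share with an OBOX4 peak was higher where the gene had more counts at 0 h, and it was higher for members than for all genes tested in each range of level. Of members under 1 CPM at 0 h, 33 of 97 (34.02%) had an OBOX4 peak, against 21.26% of genes tested. From 1 to 10 CPM it was 36 of 87 (41.38%), against 34.04%, and at 10 CPM or more 21 of 24 (87.5%), against 55.55%. By ratio of 12 h to 0 h, 29 of the 52 members ranked highest, then 21, 21 and 19 of the following sets of 52 had a peak. No test was made on these shares, and the ranges were not matched for gene type or for the level at 12 h.

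**Figure D2:**
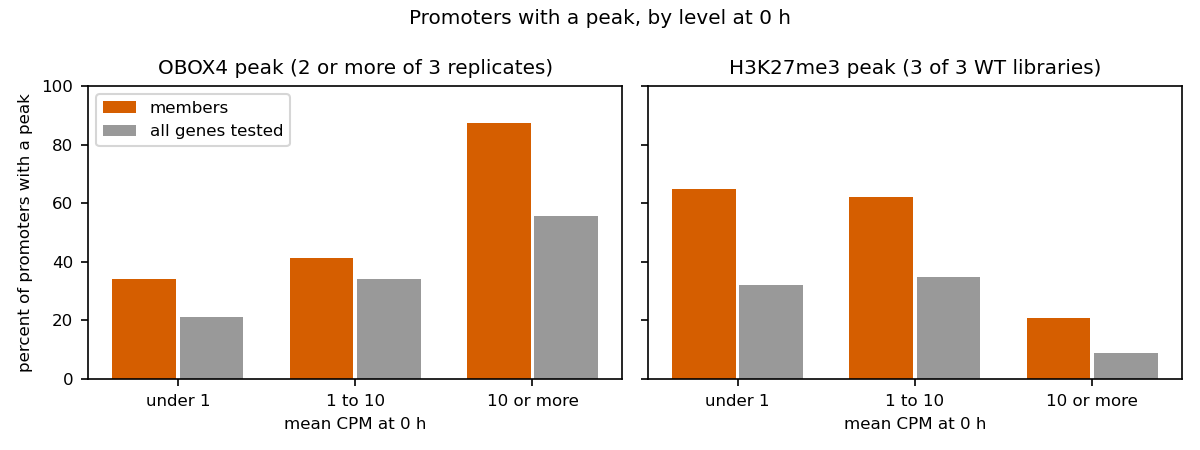
Percent of promoters (3000 bases either side of a start) with an OBOX4 peak (left) or with an H3K27me3 peak in all 3 WT libraries without PlaB (right), for members and for all genes tested, by mean CPM at 0 h. Members exceed all genes tested in each range, with 87.5% against 55.55% for OBOX4 at 10 CPM or more and 64.95% against 32.09% for H3K27me3 under 1 CPM.

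Where a member promoter had a peak, the highest peak at any start of the gene was taken in each replicate. The median enrichment over background at the 90 promoters was 7.73. Over all OBOX4 peaks, which include those far from promoters and were not picked as the highest at a gene, it was 5.4. The values are therefore not like for like. Summits lay within 500 bases of a start at 44 of them, the median distance was 519 bases, and 60 lay upstream. A wide peak can reach into a promoter while its summit lies outside. The highest enrichment, 253.3, belonged to a peak that overlaps the promoter of *Gm15894*, with its summit 6185 bases downstream of that start in an intron of *Il34*. The promoter of *Il34* itself had a weaker peak of 9.71, 2717 bases upstream. The next were *Fbxo15* (211.7, 61 bases upstream, in an MT2B2 repeat), *5031415H12Rik* (184.3), *Mreg*, which encodes melanoregulin (161.8, 2045 bases upstream), *Fem1b* (117.8, 777 bases upstream), *Klf9* (114.2, 4614 bases upstream), *Id3* (96.2, 2006 bases downstream), *Gm5662* (94.4, 3207 bases upstream), *Gabarapl2*, an autophagy gene of the ATG8 family (87.7), and *Gm11962* (83.5). *Trim28* had an enrichment of 12.3, with the summit 37 bases downstream.

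Repeats held 23 of the 90 member summits (25.56%), against 35.88% of all OBOX4 summits, which include those far from promoters. Some members, predicted genes among them, had their summit in a retroviral element upstream. The summit of *Gm4782* (enrichment 47.0) lay 462 bases upstream in an MT2B2 element, that of *Gm8038* (34.4) 314 bases upstream in another MT2B2 element, and that of *Abcb5* (19.2) 155 bases upstream of a start in an MT2_Mm element, the promoter class of MERVL. A DUX peak of 7.51 had its summit 85 bases upstream of the same *Abcb5* start. At *Gm5662* the OBOX4 summit 3207 bases upstream lay in an ORR1A2 internal element, and a separate DUX peak of 8.11 had its summit 86 bases upstream.

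Summit sequences are shown to compare the strongest member peaks with those that hold the study's OBOX4 motif. Each is 201 bases, centred on the summit, on the plus strand of GRCm38.p6 as RefSeq gives it. Capitals mark TAATCC or its reverse complement GGATTA, a homeodomain core of the bicoid type, and any match on either strand to the study's 12-letter OBOX4 motif. The 2 can overlap.
*Gm15894* chr8:110761077-110761277: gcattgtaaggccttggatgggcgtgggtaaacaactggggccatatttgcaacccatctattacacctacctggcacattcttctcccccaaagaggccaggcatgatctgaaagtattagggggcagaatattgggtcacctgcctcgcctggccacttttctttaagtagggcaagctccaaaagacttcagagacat
*Mreg* chr1:72214252-72214452: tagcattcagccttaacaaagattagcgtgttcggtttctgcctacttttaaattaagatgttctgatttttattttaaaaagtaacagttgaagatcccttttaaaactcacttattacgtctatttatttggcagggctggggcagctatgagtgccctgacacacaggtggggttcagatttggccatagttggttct
*Fem1b* chr9:62812611-62812811: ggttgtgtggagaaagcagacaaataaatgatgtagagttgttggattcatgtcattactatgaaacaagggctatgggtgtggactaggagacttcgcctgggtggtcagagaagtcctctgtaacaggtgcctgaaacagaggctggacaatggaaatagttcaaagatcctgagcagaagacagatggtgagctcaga
*5031415H12Rik* chr17:70747953-70748153: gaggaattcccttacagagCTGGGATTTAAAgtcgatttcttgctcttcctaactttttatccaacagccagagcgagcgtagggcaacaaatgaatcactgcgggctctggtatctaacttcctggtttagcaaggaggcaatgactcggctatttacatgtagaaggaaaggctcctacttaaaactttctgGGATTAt
*Gm8038* chr6:50622098-50622298: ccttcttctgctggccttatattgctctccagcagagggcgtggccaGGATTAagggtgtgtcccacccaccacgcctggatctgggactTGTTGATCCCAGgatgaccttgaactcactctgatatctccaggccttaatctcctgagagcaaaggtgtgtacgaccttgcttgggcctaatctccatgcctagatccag
*Gm2035* chr12:87922528-87922728: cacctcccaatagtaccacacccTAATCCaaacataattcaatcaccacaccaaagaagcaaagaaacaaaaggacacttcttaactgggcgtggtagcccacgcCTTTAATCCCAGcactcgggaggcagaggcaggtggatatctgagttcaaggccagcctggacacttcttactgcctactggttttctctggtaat
*Fndc7* chr3:108857032-108857232: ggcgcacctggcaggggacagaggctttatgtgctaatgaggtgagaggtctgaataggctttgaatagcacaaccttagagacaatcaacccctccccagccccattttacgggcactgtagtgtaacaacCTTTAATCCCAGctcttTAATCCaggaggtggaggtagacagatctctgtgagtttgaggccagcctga

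The first 3 of these, at *Gm15894*, *Mreg* and *Fem1b*, are among the highest enrichments and hold neither motif in this window. The other 4 are all the member summits that hold the 12-letter motif, among them *Gm8038* inside MT2B2 and *Gm2035* inside B1_Mus2. Over all members, TAATCC on either strand was found at 12 of 90 summits (13.33%), against 14.21% of the 20995 OBOX4 summits. The 12-letter motif was found at 4 (4.44%), against 4.9%. Among the 30 member summits of highest enrichment the counts were 6 (20.0%) and 3 (10.0%), and among the other 60 they were 6 (10.0%) and 1 (1.67%). In RefSeq promoters of 300 bases, which matched 144 members, TAATCC was found in 10 (6.94%), against 8.14% of 27025 promoters.

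H3K27me3, the Polycomb mark, was present at a larger share of members than of all genes tested, given here as a description with no test. In WT mESCs without PlaB, 122 members (58.65%) had an H3K27me3 peak at the promoter in all 3 libraries, against 21.71% of genes tested. Among genes under 1 CPM at 0 h it was 63 of 97 members (64.95%), against 32.09%, from 1 to 10 CPM 54 of 87 (62.07%), against 34.86%, and at 10 CPM or more 5 of 24 (20.83%), against 8.79%. These ranges too were not matched for gene type or for the level at 12 h. H3K4me3 and H3K27me3 were both present in all 3 WT libraries at 111 members (53.37%), against 19.33%. The H3K27me3 and OBOX4 groups overlapped in part, with 35 members in both, 87 with H3K27me3 only, 55 with OBOX4 only and 31 with neither. *Krt18*, *Sp9*, *Ddr2* and *Osbp2* were in the H3K27me3 group. *Trim28*, *Fem1b*, *Klf9*, *Mreg*, *Mkrn1* and *Fbxo15* had H3K4me3 and H3K27ac in all 12 libraries of each mark and H3K27me3 in none.

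Histone marks at member promoters were then compared between *Obox4* KO and WT mESCs, as the percent of the 208 promoters with a peak per library. With 3 libraries against 3, the exact two-sided permutation test cannot give a p below 0.10, so no difference could pass 0.05. Without PlaB, H3K4me3 was present at 79.0% ± 1.55 of member promoters in *Obox4* KO and 87.7% ± 0.278 in WT (SD, n = 3 each, exact p = 0.10), with the libraries of the groups not overlapping. Over all genes tested the means were 82.91% in *Obox4* KO and 84.64% in WT. With PlaB, H3K4me3 was present at 76.3% ± 2.37 of member promoters in *Obox4* KO and 80.8% ± 0.481 in WT (exact p = 0.10), against 81.8% and 81.25% over all genes tested. H3K27me3 was present at 68.1% ± 1.00 of member promoters in *Obox4* KO and 62.7% ± 1.21 in WT without PlaB, and at 69.1% ± 2.73 in *Obox4* KO and 59.3% ± 4.36 in WT with PlaB (exact p = 0.10 each). All genes tested also had more H3K27me3 in *Obox4* KO, with 29.43% in *Obox4* KO and 25.57% in WT without PlaB, and 29.22% and 23.68% with PlaB. H3K27ac was present at 30.8% ± 1.73 of member promoters in *Obox4* KO and 30.8% ± 1.27 in WT without PlaB, and the libraries overlapped with and without PlaB (exact p = 1.0 each). The number of peaks per library differed between lists, and its part in these shares was not tested.

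H3K4me3 peaks present in all 3 WT libraries and in no *Obox4* KO library without PlaB were found at 12 members (5.77%), where the background over all genes tested was 1.03%. They were *Gm4782*, *Gm8038*, *Fgfbp1*, *Asgr2*, *Fcgrt*, *Herc6*, *Spn*, *Acsm4*, *Tktl2*, *Sh3tc2*, *Ccdc172* and *6330410L21Rik*, most of them named here after their values were seen. With PlaB there were 10 such members (4.81%, background 0.539%), *Gm4782*, *Gm8038*, *Gm5662*, *Tktl2*, *Sh3tc2*, *Ccdc172*, *Mlf1*, *Tuba3b*, *Tex12* and *Selenop*. The opposite pattern, in all 3 *Obox4* KO libraries and no WT library, held for 0 members without PlaB (background 0.135%) and for 3 with PlaB (1.44%, background 0.786%), *Npffr1*, *Fyb2* and *4930512J16Rik*.

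**Figure D3:**
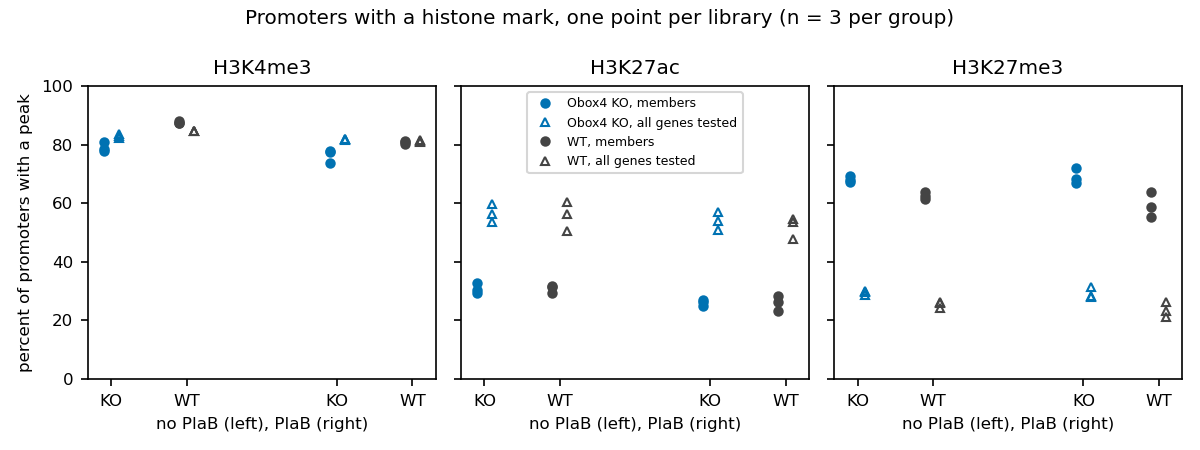
Percent of promoters with a peak of H3K4me3, H3K27ac or H3K27me3 in *Obox4* KO (blue) and WT (grey) mESCs without and with PlaB, for the 208 members (filled points) and all genes tested (triangles), 1 point per library, 3 per group. Members sit far below all genes for H3K27ac and far above them for H3K27me3, and in H3K4me3 without PlaB the *Obox4* KO points (77.88% to 80.77%) lie below the WT points (87.5% to 87.98%).

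In 2C-embryos, the question was whether the members need *Obox4* or *Dux*. A call needed a p from edgeR's quasi-likelihood test that stayed at or under 0.01 after Benjamini-Hochberg adjustment over all genes, together with a log2 fold change of 1 or more in size, and values are CPM scaled by TMM. Of the 208 members, 195 had enough counts to be tested. The *Obox4* KD, *Dux* KD and DKD comparisons share the scramble libraries, and the rescue is compared with DKD, so their counts are not independent of each other.

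With *Obox4* KD alone, 1 of 195 members (0.513%) was called, where the background was 0.412% of genes tested. It was *Hspa1a*, a chaperone of the HSP70 family, at 4.83 and 4.90 CPM in *Obox4* KD, against 11.5 and 11 CPM in scramble (log2 fold change -1.21, SE 0.246, adjusted p = 0.00714), and 6 of the 10 fits that leave out 1 library lose it. The median log2 fold change was -0.04 over members and 0.00 over all genes. The members with the largest rise in mESCs gave no call, with *Il34* at 7.01 and 7.23 CPM in *Obox4* KD, against 7.95 and 7.55 CPM in scramble, and *Gm2035* at 24.3 and 18.4 CPM in *Obox4* KD, against 38.8 and 30.9 CPM in scramble.

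With *Dux* KD, 4 members fell (2.05%, background 1.05%) and 12 rose (6.15%, background 3.25%). All 4 that fell were predicted genes, *Gm2035*, *Gm5662*, *Gm8038* and *Gm5788*. *Gm5662* had 47.2 and 46.3 CPM in *Dux* KD, against 164 and 173 CPM in scramble (log2 fold change -1.85, SE 0.12, adjusted p = 4.1e-08). *Gm2035* had 6.54 and 7.01 CPM in *Dux* KD, against 38.8 and 30.9 CPM in scramble (log2 fold change -2.37). Large rises were seen in *Slc9b2* (2.69), *Cldn5* (2.42), *Helz2* (2.18), *Slc38a3* (2.14), *Spn* (2.04), *Ppp1r3c* (2.02) and *Smpdl3b* (1.93), most of them low in scramble. Without scramble replicate 1 the call count was 9 members in all (background 2.35%), and without replicate 2 it was 8 (background 2.33%), against 16 with both.

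With both ASOs, 8 members fell (4.10%, background 3.16%) and 21 rose (10.8%, background 8.42%), so both shares were near those over all genes. *Gm2035* had 3.35 and 3.21 CPM in DKD, against 38.8 and 30.9 CPM in scramble (log2 fold change -3.41, SE 0.279, adjusted p = 6.4e-08). *Gm5662* had 23.7 and 27.9 CPM in DKD, against 164 and 173 CPM in scramble (-2.71), and *Gm8038* 10.2 and 11 CPM in DKD, against 48.7 and 52.1 CPM in scramble (-2.25). These 3 genes ran in the same order in every group, lowest in DKD, higher in *Dux* KD, higher again in *Obox4* KD and highest in scramble. The others that fell were *Gm4782* (-1.65), *Gm5788* (-1.45), *Hspa1a* (-1.26), *Tmc5*, a member of the transmembrane channel-like family (-1.15), and *Glrx*, a glutaredoxin (-1.05). All 8 counted as having an OBOX4 promoter peak, against 39.44% of the 393 genes that fell and were also tested in the induction series. At *Gm5788* the merged region was held by at least 2 replicates, but only 1 replicate's own peak, with an enrichment of 3.97, reached the promoter.

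Among the genes that rose in DKD, *Tex101* had 4.82 and 3.27 CPM in DKD, against 0.336 and 0.0411 CPM in scramble (log2 fold change 4.28, SE 0.687, adjusted p = 9.5e-05). *Helz2*, an interferon-inducible helicase, had 13.0 and 10.1 CPM in DKD, against 0.978 and 1.35 CPM in scramble (3.33, SE 0.246, adjusted p = 2.2e-08). *Slc9b2*, a sodium/proton exchanger (3.34), *Cldn5*, a tight junction claudin (3.27), *Smpdl3b* (2.83), *Ppp1r3c*, a glycogen-targeting subunit of protein phosphatase 1 (2.57), and *Slc38a3*, a glutamine transporter (2.51), also rose. Of the 21 that rose, 10 had an OBOX4 peak (47.62%, against 41.23% of the 1540 such genes that rose). *Il34* was not called, at 6.54 and 5.96 CPM in DKD, against 7.95 and 7.55 CPM in scramble, nor was *Fem1b*, at 295 and 302 CPM in DKD, against 365 and 360 CPM in scramble.

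Adding *Obox4* mRNA to the double knockdown raised 4 members (2.05%, background 1.1%) and lowered 6 (3.08%, background 3.27%). The rescue libraries stood apart, with 69461986 and 53821827 total counts, against 26148176 to 44614416 in the other 2C-embryo libraries. Of genes with more than 5 counts, 40.02% and 39.83% had an odd count in rescue, against 48.12% to 49.24% in the other 2C-embryo libraries. In morulae this share was 28.47% to 36.42%, in blastomeres 20.58% to 29.93% and in PlaB mESCs 22.19% to 38.97%. In the induction series it was 48.77% to 49.7%. Whether any of these libraries were processed otherwise, and the part of this in the calls, was not tested. *Gm2035* had 6.92 and 15.4 CPM in rescue, against 3.35 and 3.21 CPM in DKD (log2 fold change 1.75, SE 0.275, adjusted p = 0.00014). *Gm8038* had 21.1 and 32.0 CPM in rescue, against 10.2 and 11 CPM in DKD (1.32), *Gm5662* 47.2 and 65.4 CPM in rescue, against 23.7 and 27.9 CPM in DKD (1.13), and *Glrx* 12.7 and 11.8 CPM in rescue, against 4.71 and 7.70 CPM in DKD (1.01). In the predicted genes, rescue stayed below scramble in every library, and in *Glrx* rescue had 12.7 and 11.8 CPM against 12.4 and 13.0 CPM in scramble. The genes that fell with the mRNA were *Tex101* (-2.13), *Helz2* (-2.04), the kinase gene *Mylk* (-1.19), the protease gene *Mep1b* (-1.11), the creatine transporter gene *Slc6a8* (-1.10) and *Drc1*, a dynein regulator (-1.07). *Helz2* had 2.41 and 3.28 CPM in rescue, against 13.0 and 10.1 CPM in DKD. Without DKD replicate 1 the count was 5 members in all (background 1.93%), and without rescue replicate 1 it was 6 (background 3.64%), against 10 with every library.

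Whether the effect of the *Obox4* ASO depended on *Dux* was tested as an interaction term, which called 0 of 195 members in 2C-embryos (background 0.256%). *Obox4* without *Obox4-ps35* was below scramble in *Dux* KD too, as given above, which limits this comparison. The lower ASO concentration in the single knockdowns limits it as well. Of the 2C genes list, 34 were tested, and 1 fell in *Obox4* KD, 13 in *Dux* KD and 18 in DKD, while 10 rose in rescue against DKD. None of these is a member.

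**Figure D4:**
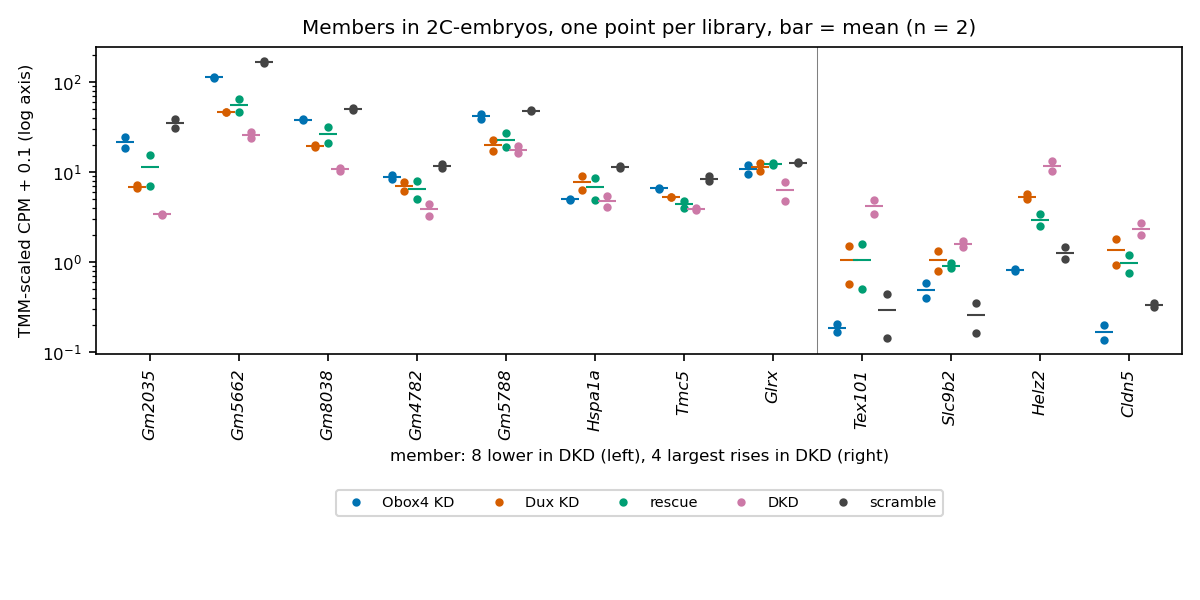
TMM-scaled CPM (plus 0.1, log axis) of the 8 members that fell in DKD against scramble (left) and the 4 with the largest rise (right) in 2C-embryos, 1 point per library and a bar at the mean of 2, for *Obox4* KD, *Dux* KD, rescue, DKD and scramble. The predicted genes on the left run lowest in DKD and highest in scramble, as *Gm5662* with 23.7 and 27.9 CPM against 164 and 173 CPM.

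In morulae, 0 of 179 members tested were called by edgeR's quasi-likelihood test between the libraries labelled double KD and scramble, and the background was 0% of 22142 genes. At an unadjusted p under 0.05 there were 44 members, against 17.8% of all genes, and DESeq2 called 13 (background 3.57%). The median log2 fold change was 0.56 over members and 0.02 over all genes, with 119 of 179 positive. The 2 libraries labelled double KD differed from each other, with a correlation of log CPM of 0.934, against 0.995 in scramble. *Krt18* had 124 and 407 CPM in the libraries labelled double KD, against 173 and 161 CPM in scramble, and *Fbxo15* 1070 and 556 CPM, against 1484 and 1615 CPM in scramble. *Tex101*, the member with the smallest p, had 19.4 and 45.0 CPM in the libraries labelled double KD, against 0.492 and 0.274 CPM in scramble. Left out in turn, replicate 1 labelled double KD gave 68 calls among members (background 22%), replicate 2 gave 16 (background 3.82%), and either scramble library 1 (background 0.267% without replicate 1 and 0.204% without replicate 2).

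In *Dux* KO blastomeres, edgeR called 0 of 149 members for *Obox4* KO and 0 for *Obox4* Het, each against *Obox4* WT, where the background was 0% of 19182 genes in both. At an unadjusted p under 0.05 there were 9 members in *Obox4* KO (7.24% of all genes) and 5 in *Obox4* Het (2.77% of all genes), and DESeq2 called 3 (background 1.34%) and 1 (background 0.271%). Single cells of 1 genotype differed much among themselves, with correlations of 0.819 to 0.898. *Gm2035* had 0 and 4.27 CPM in *Obox4* KO, against 0.299 and 12 CPM in *Obox4* WT, and *Il34* 13.1 and 12.1 CPM, against 7.50 and 3.62 CPM in *Obox4* WT. Neither was called.

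PlaB mESCs gave the largest counts. Of the 208 members, 205 were tested, and the 3 knockout comparisons share the WT libraries. DKO replicate 3 had the lowest total of any library, at 14283083 counts. Its share of odd counts, as defined above for rescue, was 22.19%, against 36.27% to 38.56% in WT. The part of this in the calls and in the counting intervals below was not tested. In *Obox4* KO, 29 members fell (14.1%, background 3.96%) and 19 rose (9.27%, background 4.92%). In *Dux* KO, 26 fell (12.7%, background 4.7%) and 6 rose (2.93%, background 1.62%). In DKO, 46 fell (22.4%, background 8.79%) and 23 rose (11.2%, background 9.25%). The median log2 fold change over members was -0.39 in *Obox4* KO, -0.18 in *Dux* KO and -0.26 in DKO, against 0.02, 0.00 and -0.06 over all genes. The *Obox4* KO count rests on single libraries, with 74 members called without *Obox4* KO replicate 3 (background 13.6%), 31 without WT replicate 1 (background 5.35%) and 29 without WT replicate 2 (background 5.26%).

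Marker genes of other lineages moved with the knockouts. Of 12 trophectoderm genes, 7 rose in *Obox4* KO, 2 in *Dux* KO and 8 in DKO. Their summed level was 918 to 2891 CPM in *Obox4* KO, 719 to 735 CPM in *Dux* KO and 4080 to 4819 CPM in DKO, against 285 to 292 CPM in WT. Of 14 primitive endoderm genes, 4 rose and 2 fell in *Obox4* KO, 1 fell in *Dux* KO and 9 rose in DKO. Of 16 pluripotency genes, 3 fell in *Obox4* KO, 2 in *Dux* KO and 6 in DKO, and their summed level was 4437 to 5455 CPM, 5790 to 5817 CPM and 4099 to 4964 CPM in these lines, against 7669 to 7790 CPM in WT. The part of these shifts in the members' values was not tested. Of 31 2C genes tested, 12 fell in *Obox4* KO and 29 each in *Dux* KO and DKO.

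The 13 members that fell in all 3 knockouts (6.34% of those tested, background 2.07%) were *Abcb5*, *Ddr2*, *Fbxo15*, *Klf9*, *Mreg*, *Paip2b*, *Sp9*, *Mir124-2hg* and 5 predicted genes (*Gm11290*, *Gm34653*, *Gm5662*, *Gm8038* and *Gm8540*). *Fbxo15* had 209, 211 and 221 CPM in *Obox4* KO, 178, 177 and 170 CPM in *Dux* KO and 129, 140 and 105 CPM in DKO, against 584, 589 and 575 CPM in WT. Its log2 fold changes were -1.44 (SE 0.105), -1.73 (SE 0.106) and -2.22 (SE 0.108), and the groups did not overlap. *Klf9* had 196, 197 and 204 CPM in *Obox4* KO, 196, 193 and 199 CPM in *Dux* KO and 169, 183 and 129 CPM in DKO, against 422, 411 and 419 CPM in WT. *Mreg* had 174, 171 and 139 CPM in *Obox4* KO, 155, 152 and 152 CPM in *Dux* KO and 90.7, 116 and 81.7 CPM in DKO, against 363, 367 and 371 CPM in WT. These 3 genes also carried some of the strongest OBOX4 peaks named above.

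*Abcb5*, with an OBOX4 summit in an MT2_Mm element and a DUX peak upstream of the same start, had 1.06, 1.84 and 4.93 CPM in *Obox4* KO and 0.346, 0.387 and 0.412 CPM in *Dux* KO, against 24.2, 24.8 and 24.5 CPM in WT (log2 fold change -3.24, SE 0.440, in *Obox4* KO). In DKO it had 0 counts in all 3 libraries, at least 663-fold lower than WT with a floor of 3 counts over the group. In 2C-embryos *Abcb5* did not fall, with 18.1 and 18.9 CPM in DKD, against 11.8 and 10.8 CPM in scramble. *Ddr2*, a collagen receptor kinase, had 19.2, 16.8 and 25.1 CPM in *Obox4* KO, against 106, 104 and 103 CPM in WT (-2.36, SE 0.170, adjusted p = 4.55e-06).

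Several predicted genes were close to 0 in the lines without *Dux*, where *Obox4* RNA was low as well. *Gm5662* had 0.0433, 0.232 and 0.123 CPM in *Dux* KO and 0.128, 0.204 and 0 CPM in DKO, against 165, 180 and 158 CPM in WT, while *Obox4* KO kept 31.4, 33.5 and 89.6 CPM. *Gm2035* had 1 count over the 3 *Dux* KO libraries and 1684 counts over the 3 WT libraries, 2280-fold lower with a counting interval of 409 to 90100, and 0 counts in DKO, at least 420-fold lower. *Gm5788* had 2 counts in *Dux* KO and 1264 counts in WT, 855-fold lower with a counting interval of 236 to 7070, and 0 counts in DKO, at least 315-fold lower. *Gm8038* had 3.70, 4.06 and 4.54 CPM in *Obox4* KO, 0.389, 0.464 and 0.247 CPM in *Dux* KO and 0.608, 0.357 and 0.372 CPM in DKO, against 15.8, 16.2 and 13.5 CPM in WT. *Gm11290* (-6.12 in *Dux* KO, -7.40 in DKO) and *Gm4782* (-5.56 in *Dux* KO, -4.67 in DKO) also fell. *Gm34653* differed from these, with 0.218, 0.579 and 0.605 CPM in *Obox4* KO, 0.627, 0.812 and 0.659 CPM in *Dux* KO and 0.512, 0.919 and 0.465 CPM in DKO, against 2.22, 2.36 and 2.49 CPM in WT. *Ptpro*, a receptor tyrosine phosphatase, was also among the largest falls in DKO (-4.53).

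In *Obox4* KO, *Mir124-2hg* (log2 fold change -3.08), *Gm8540* (-2.37), *Gm34653* (-2.32), the carboxypeptidase-like gene *Cpxm2* (-2.29), the axonemal dynein gene *Dnah5* (-2.25) and *4930512J16Rik* (-1.99) were the other large falls. There were 16 members that fell in *Obox4* KO and were not called in *Dux* KO (7.8%, background 1.79%), among them *Cpxm2*, *Dnah5* and *4930512J16Rik*. *Cpxm2* had 1.52, 0.807 and 3.27 CPM in *Obox4* KO and 5.36, 4.89 and 5.04 CPM in *Dux* KO, against 8.54, 8.82 and 9.61 CPM in WT, and the difference between these knockouts was not tested. *Il34* was not called in any knockout at this threshold, with 33.2, 35.5 and 21 CPM in *Obox4* KO, 38.4, 36.5 and 35.7 CPM in *Dux* KO and 20.5, 20.7 and 22.0 CPM in DKO, against 40.6, 39.0 and 44.1 CPM in WT.

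The 5 members that rose in all 3 knockouts (2.44%, background 0.936%) were *Peg10*, *Plat*, *S100a6*, *Pdlim2* and *Osbp2*. *Peg10*, an imprinted retrotransposon-derived gene of the placenta, had 3758, 3600 and 8147 CPM in *Obox4* KO, 1812, 1767 and 1779 CPM in *Dux* KO and 7931, 7865 and 5067 CPM in DKO, against 490, 496 and 470 CPM in WT. *Plat*, tissue plasminogen activator, had 23.0, 18.2 and 28.9 CPM in *Obox4* KO and 55.7, 41.6 and 24.6 CPM in DKO, against 3.91, 2.60 and 2.60 CPM in WT. *S100a6*, a calcium-binding protein gene, had 39.1, 38.3 and 37.2 CPM in *Obox4* KO, against 8.24, 6.54 and 6.69 CPM in WT.

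*Krt18* had 136, 137 and 816 CPM in *Obox4* KO and 1750, 1352 and 1616 CPM in DKO, against 32.0, 33.7 and 32.1 CPM in WT (log2 fold changes 3.48 and 5.59). The value in *Obox4* KO replicate 3 was far above its 2 partners. *Bhlhe41*, a bHLH repressor (2.92), *Tmem200b* (2.86) and *Ppp1r3c* (2.33) were the other large rises in *Obox4* KO, and *Exoc3l* (1.11) rose in *Dux* KO. In DKO the largest rises after *Krt18* were in *Mybpc3*, a myosin-binding protein gene (4.85), *Itih5* (4.30), *Pdlim2* (4.02), *Peg10* (3.84), *Plat* (3.75), *Sh3tc2* (3.20) and the desmosomal cadherin gene *Dsc2* (3.10). *Mybpc3* had 170, 124 and 185 CPM in DKO, against 5.59, 6.11 and 4.88 CPM in WT.

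**Figure D5:**
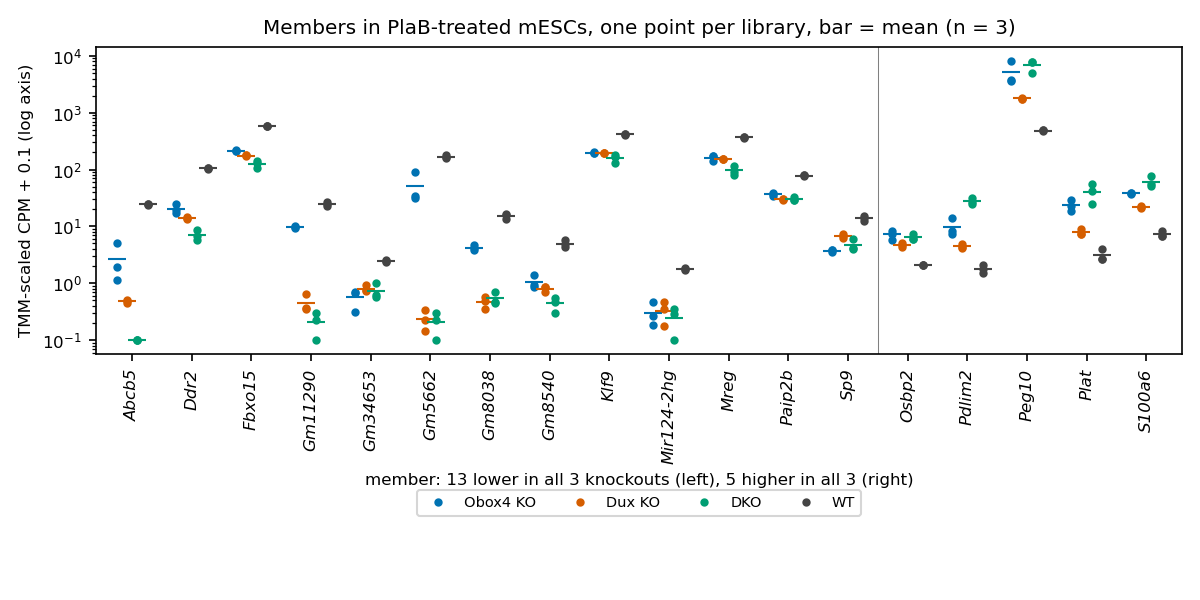
TMM-scaled CPM (plus 0.1, log axis) of the 13 members that fell (left) and the 5 that rose (right) in all 3 knockouts in PlaB mESCs, 1 point per library and a bar at the mean of 3, for *Obox4* KO, *Dux* KO, DKO and WT. *Abcb5* has 0 counts in all DKO libraries, against about 24.5 CPM in WT, and *Peg10* lies above WT in every knockout library.

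OBOX4 peaks were counted at the members called in PlaB mESCs, with no test of the shares. Of those that fell, a peak was present at 21 of 29 (72.41%) in *Obox4* KO, 18 of 26 (69.23%) in *Dux* KO and 26 of 46 (56.52%) in DKO. Over all genes that fell and were also tested in the induction series, the shares were 40.2% of 704 in *Obox4* KO, 35.19% of 648 in *Dux* KO and 37.83% of 1504 in DKO. Of those that rose, 8 of 19 (42.11%) in *Obox4* KO had a peak, against 33.65% of 939 such genes, and 6 of 23 (26.09%) in DKO, against 35.81% of 1751. An interaction term, the difference of DKO from *Dux* KO minus that of *Obox4* KO from WT, called 8 of 205 members (background 1.25%). Since *Obox4* RNA was already at 0.123 to 0.138 CPM in *Dux* KO, the difference of DKO from *Dux* KO does not measure the loss of *Obox4* RNA.

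Across all experiments, 97 of the 208 members (46.6%) were called in at least 1 comparison and 111 in none, where the background of genes called in at least 1 was 24.1%, not matched for level or for the number of comparisons tested. Of 192 members tested in both, 7 fell both in DKD 2C-embryos and in DKO mESCs (3.65%, background 1.5%), namely *Gm2035*, *Gm4782*, *Gm5662*, *Gm5788*, *Gm8038*, *Glrx* and *Tmc5*. *Gm2035*, *Gm5662*, *Gm8038* and *Glrx* also rose in the rescue.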

How the data were processed

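RNA-seq was analysed for 41 libraries and CUT&RUN peaks for 40 lists, grouped by their labels, and 3 IgG samples with contradictory labels were left out. For the RNA-seq, the authors trimmed reads with fastp (0.23.2), aligned them with STAR (2.7.9a) to GRCm38.p6 and deposited gene counts from featureCounts (2.0.1), with multi-mapping reads discarded. The deposited blastomere counts are fractional per the file headers and were rounded for the fit. The authors also deposited expected counts in which multi-mapping reads are split into fractions, used here for 1 alternative. CUT&RUN reads were aligned by the authors with Bowtie2 (2.4.1), with peaks called on each replicate by MACS3 (3.0.0a6), and the deposited columns used are the enrichment, a ratio of signal to background, −log10 q-values and a score with summit positions.

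The induction series was described as CPM by library total. Each other experiment was fitted as a whole in R (4.3.3) by edgeR (4.0.16). Genes with low counts were removed by filterByExpr, scaling used TMM factors of 0.909 to 1.10 in 2C-embryos and 0.753 to 1.13 in PlaB mESCs, and p-values were adjusted over all genes tested. The intervals for 1 to 3 counts are exact and cover counting error only. CPM values scaled by TMM were given per library. Peaks were used on chromosomes 1 to 19, X and Y with GENCODE starts, and sequences were read from the RefSeq genome of GRCm38.p6. The fits were tested on simulated data.

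The members and all gene lists were chosen with earlier results of these data known. Members are named if they are among the 20 largest ratios or the 5 highest counts at 12 h, belong to a list, are among the 8 largest rises or falls called in a comparison or the 10 highest OBOX4 enrichments, or lie next to a threshold, and clone-name genes only if among the 10 largest ratios or called. Not every result that this rule names is reported here. *Gm* genes named outside this rule, and members named by a shared pattern, were chosen after their values were seen. Alternatives were DESeq2 (1.42.0), no filter, a replicate block, only the groups compared, leaving out each library, other thresholds, and, added after seeing the data, multi-mapping fractions.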

Additional observations from a re-analysis of the deposited data

Results flagged for a closer look

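In PlaB mESCs, 8 members differed between lines without *Dux* (DKO against *Dux* KO) otherwise than between lines with *Dux* (*Obox4* KO against WT), by an interaction term of the edgeR fit with Benjamini-Hochberg adjustment over all genes. *Obox4* RNA stood at 0.187, 0 and 0.14 CPM in DKO, against 0.138, 0.123 and 0.131 CPM in *Dux* KO, so the first of these differences does not measure the loss of *Obox4* RNA. *Obox4* KO replicate 3 and the trophectoderm markers move with these values, and their part was not tested. The difference was 2.20 on the log2 scale for *Gm8038*, with a log2 fold change of 0.31 without *Dux* and -1.89 with *Dux* (adjusted p = 0.00708), where the cells without *Dux* were already under 1 CPM. The transcription factor gene *Sp9* differed by 1.37, with -0.55 without *Dux* and -1.92 with *Dux* (adjusted p = 0.00946). The collagen gene *Col18a1* differed by 1.55, with -0.17 and -1.72 in the same order (adjusted p = 0.00822), and the collagen receptor gene *Ddr2* by 1.38, with -0.98 and -2.36 (adjusted p = 0.00675). *Paip2b*, which encodes an inhibitor of poly(A)-binding protein, differed by 1.13, with 0.03 and -1.10 (adjusted p = 0.00113). The sign was opposite in 5 of the 8, these being *Gm8038* and *Paip2b* above and the 3 that follow, and the single fold changes were not all called. *Fam189a2* differed by 1.87, with 1.40 without *Dux* and -0.47 with *Dux* (adjusted p = 0.000647). *Ninj2* differed by 1.47, with 1.09 and -0.37 (adjusted p = 0.00905). *Kctd12* differed by -1.63, with -0.08 and 1.54 (adjusted p = 0.0086).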

How the results depend on the processing

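Of 205 calls on single members, none changed direction under any alternative run, over 3167 values 386 lost the call, and 342 of these losses came from leaving out 1 library. In 2C-embryos, *Obox4* KD called 2 members with no filter and 0 with the replicate block (0 to 1 with 1 library left out), *Dux* KD 8 to 18 with 1 left out, DKD 24 to 30, and the rescue 16 with no filter and 5 to 12 with 1 left out. In morulae, DESeq2 called 13 and no filter 18 (1 to 68 with 1 left out). In blastomeres, *Obox4* KO gave 3 with DESeq2 and 1 with no filter (0 to 4), and *Obox4* Het 1 with DESeq2 (0 to 1). In PlaB mESCs, a fit of only the 2 groups gave 31 for *Obox4* KO (29 to 74 with 1 left out) and 60 for *Dux* KO (22 to 47), and DKO gave 53 to 75. The share of all genes called, not given here for each of these counts, moved with the setting as well. With DESeq2 it went from 0% to 3.57% in morulae and from 0% to 1.34% for *Obox4* KO in blastomeres. A count without that share is therefore no result about the members. The causes were not tested. Replicate numbers did not pair the samples, since same-numbered deviations correlated at a median of 0.001 in 2C-embryos and 0.017 in PlaB mESCs, and the replicate block otherwise kept each count within 1.5 times. The number of members was 50 at a ratio of 3, 543 at 1.5, 126 at 2 CPM and 200 to 247 with 1 library left out, and with multi-mapping fractions it was 194, of which 175 were shared. OBOX4 peaks were found at 77 to 82 members with 1 replicate left out. H3K27me3 without PlaB differed by 7.372 percentage points with 1000 bases either side, against 5.449. With 1 list left out, the difference ranged from -9.535 to -8.093 for H3K4me3, -0.962 to 0.721 for H3K27ac and 4.888 to 6.09 for H3K27me3 without PlaB, and from -5.288 to -3.125, -1.282 to 1.362 and 7.772 to 12.099 with PlaB.

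Depth and replicate number limit these results. Many members lie near 1 CPM, and most groups have 2 libraries. The simulations took 2 groups at a time and gave every gene the same fixed spread. In simulated 2C-embryos and PlaB mESCs the fits found most 4-fold changes and few 2-fold changes. Morulae and blastomeres were simulated as well, with results not reported here. The reported fits instead held all groups of an experiment and estimated the spread. The simulations therefore do not give the share of real changes found. A call needs a log2 fold change of 1 or more in size, and a 2-fold change lies on that threshold. The result for 2-fold changes therefore does not separate depth and replicate number from the threshold.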
